A study of Mus musculus with 22 samples.

Results

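The immediate early and activator protein 1 (AP-1) genes examined here are Fos, Fosb, Fosl1, Fosl2, Jun, Junb, Egr1, Atf3, Ier3 and Myc, 10 of the 20018 genes that the lung arrays name. They were chosen by name, and every probe whose RefSeq accession belongs to one of them was taken, which gave 11 of 55681 probes. Fosl2 has 2 probes and the others 1 each. In at least 1 dose group each of the 11 probes exceeded background on 80% or more of the arrays, so that none of the 10 genes was lost to the filter on low signal. Lung RNA came from 22 female C57BL/6 mice treated at 8 weeks of age, of which 5 were vehicle controls, 6 received 18 µg, 5 received 54 µg and 6 received 162 µg of Mitsui7, a multiwalled carbon nanotube. Each mouse was anaesthetised with Hypnorm and Dormicum, received 1 intratracheal instillation and was killed 24 h later, and the controls received the same saline and lavage fluid vehicle without nanotubes. Right lung RNA, 1 mouse per array, was labelled with Cy5 and a universal mouse reference RNA from cultured cell lines with Cy3 on all arrays, without a dye swap. Each value below is therefore a loess-normalized log2 ratio of lung to reference RNA, and a change is a difference of such ratios between groups. The ratios of different genes also differ with the reference, so levels were not compared between genes.

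Immediate early genes are transcribed within minutes of a stimulus, without new protein synthesis, when growth factors, cytokines, oxidants or mechanical strain activate MAP kinases. AP-1 is a dimer of leucine zipper proteins, in which Jun proteins pair with each other, with Fos proteins or with ATF proteins, and it binds promoters of inflammatory, matrix and growth genes. In the lung AP-1 is known for its part in the response to inhaled particles and fibres. Fos and Egr1 transcripts are short-lived after a single stimulus, whereas Fosl1 is typically induced later and lasts longer.

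The start regions of Junb and Ier3, which rose at the highest dose, and of Fos, the founding member of the family, are shown because such regions are where transcription factors bind. The sequences are those of RefSeq on GRCm38.p6, from 250 bases before to 50 bases after the start of the gene, and run 5′ to 3′ on the strand of the gene. Capitals mark the motifs found.

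Fos (chr12:85473640-85473939, plus strand): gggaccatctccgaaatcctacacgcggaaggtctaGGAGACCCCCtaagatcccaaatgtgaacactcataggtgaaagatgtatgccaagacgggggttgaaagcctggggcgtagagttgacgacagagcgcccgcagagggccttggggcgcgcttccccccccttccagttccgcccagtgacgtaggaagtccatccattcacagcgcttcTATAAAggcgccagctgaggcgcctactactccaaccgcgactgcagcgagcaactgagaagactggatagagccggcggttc

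Junb (chr8:84978699-84978998, minus strand): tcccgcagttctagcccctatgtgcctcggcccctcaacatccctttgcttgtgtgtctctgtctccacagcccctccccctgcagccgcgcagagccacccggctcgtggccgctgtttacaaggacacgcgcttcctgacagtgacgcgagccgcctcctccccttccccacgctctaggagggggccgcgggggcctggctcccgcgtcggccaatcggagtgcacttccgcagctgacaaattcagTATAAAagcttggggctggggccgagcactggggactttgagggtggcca

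Ier3 (chr17:35821463-35821762, plus strand): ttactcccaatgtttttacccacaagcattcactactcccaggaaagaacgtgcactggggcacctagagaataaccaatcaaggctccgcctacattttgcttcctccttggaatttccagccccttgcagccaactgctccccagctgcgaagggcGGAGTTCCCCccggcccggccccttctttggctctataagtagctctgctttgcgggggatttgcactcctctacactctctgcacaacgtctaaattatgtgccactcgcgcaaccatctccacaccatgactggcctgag

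A start region was at hand for 7 of the 10 genes (Fos, Fosb, Fosl2, Jun, Junb, Atf3 and Ier3). In these, 7 motifs were searched on both strands. Only full matches to a fixed pattern were counted, so that variant sites and sites outside the 300 bases were not looked for. The AP-1 site (TGACTCA), the cAMP response element (TGACGTCA), the CArG box bound by serum response factor and the E-box (CACGTG) were found in none of the 7 regions. They are in 5.2%, 1.79%, 1.63% and 7.15%, respectively, of all 32851 such regions. The EGR site (GCGNGGGCG), held by 5.55% of all regions, was found in Fosb and Fosl2. The NF-kB site, held by 4.51% of all regions, was found in Fos at positions -214 to -205, in Ier3 at -92 to -83, in Fosb and, as 2 overlapping matches, in Fosl2. The TATA word (TATAAA), held by 13.6% of all regions, was found in Fos at -33 to -28 and in Junb at 1 to 6. Positions are counted from the annotated RefSeq start as base 1, and the start used in these lungs was not measured. The regions of Jun and Atf3 held none of the 7 motifs. These matches describe the letters of the windows, and binding was not measured.

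At 162 µg, Myc, Ier3, Junb and Fosl1 rose by 1.97-fold, 1.82-fold, 1.87-fold and 1.73-fold over controls. At 18 µg and 54 µg no gene of the 10 passed the test. Dose and slide were fitted over the 22 arrays in limma, and a gene was called where it changed 1.5-fold or more with a Benjamini-Hochberg adjusted p, taken over 55681 probes, not above 0.05. By that rule 4 of the 10 genes were called higher at 162 µg and none lower, while of 16433 expressed genes 3.32% were called higher and 3.53% lower. At 18 µg, 0 of the 10 were called in limma (7 had an unadjusted p under 0.05, all of them higher), beside 0.633% of all expressed genes called higher and 1.42% lower. At 54 µg, 0 of the 10 were called in limma (6 had an unadjusted p under 0.05, all of them higher), beside 0.219% called higher and 0.134% lower. Among all expressed genes an unadjusted p under 0.05 was held by 22.2% at 18 µg, 13.8% at 54 µg and 28.8% at 162 µg. The plot of fold changes by dose shows that most of the estimates lay above 0 at each dose.

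The median log2 fold change of the 10 genes in order of dose was 0.51, 0.48 and 0.63, while that of all expressed genes was -0.02, -0.01 and -0.01. The 3 comparisons share their controls. At 162 µg, 10 of the 10 estimates were above 0, but 8 of 10 with arrays centred on their median and 7 of 10 without normalization. These scalings moved the median of all expressed genes at 162 µg to -0.18 and -0.21, and relative to that median 10 of 10 were higher under both. At 18 µg, where 9 of the 10 were above 0, the counts were 7 of 10 and 4 of 10, with the median of all genes at -0.26 and -0.42, and 8 of 10 lay above that median under both scalings. Neither scaling gave a call among the 10 genes at 162 µg. In bulk lung, more cells of a type and more RNA per cell cannot be told apart, and the p-values measure the spread between mice.

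**Figure D1:**
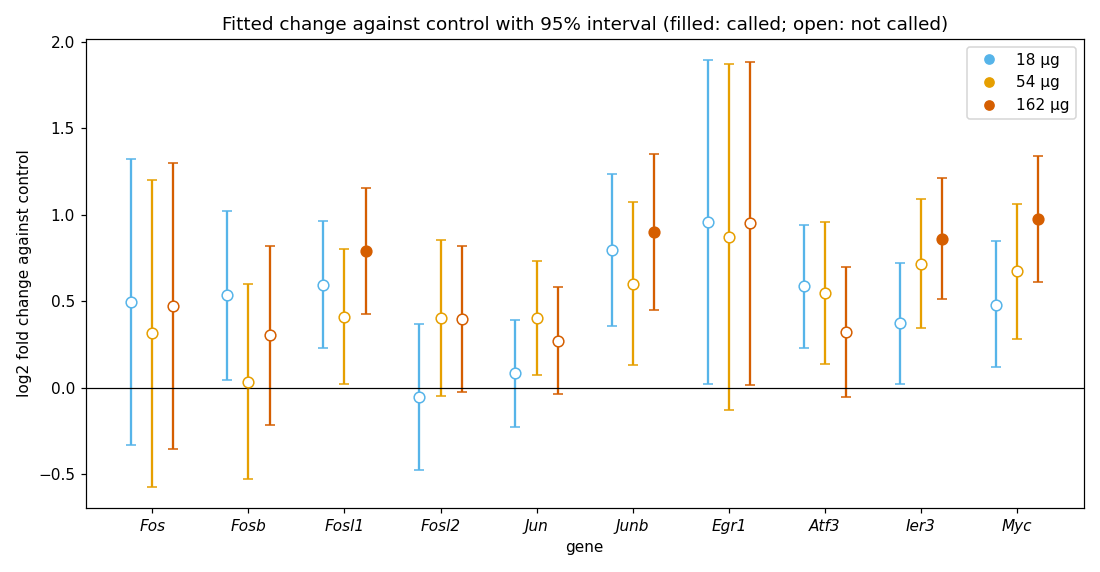
Log2 fold change against control for each of the 10 genes (x axis) at 18, 54 and 162 µg, from the limma fit over 22 arrays; bars are 95% intervals, filled points are called and open points are not. The 4 filled points are Fosl1, Junb, Ier3 and Myc at 162 µg, between 0.79 and 0.98. With arrays centred on their median or without normalization none of the 4 was called. On Cy5 alone, also without loess, only Junb of the 4 was lost.

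Myc, a leucine zipper factor that drives ribosome production and cell growth, was the gene of the 10 with the smallest p. Its log2 ratio was -3.65, -3.46, -3.83, -3.42 and -3.22 in the 5 controls. It was -2.77, -2.90, -2.71, -2.54 and -1.89 in the 5 mice given 54 µg. At 18 µg it ran from -3.67 to -2.23 with a median of -2.65, and at 162 µg from -3.25 to -1.93 with a median of -2.06. All mice at 54 µg, 5 of 6 at 18 µg and 5 of 6 at 162 µg lay above every control. Against controls Myc differed by a log2 fold change of 0.48 (SE 0.17, adjusted p = 0.1749 in limma) at 18 µg, 0.67 (SE 0.18, adjusted p = 0.1884) at 54 µg and 0.98 (SE 0.17, adjusted p = 0.003115) at 162 µg. Within slides that held both groups, the 162 µg mouse was above its control on 4 of 4 slides, by 0.17 to 1.44.

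Ier3, an early response gene with a role in survival and in NF-kB signalling, had the NF-kB match shown above. The 5 controls had log2 ratios of -0.02, -0.25, -0.18, -0.77 and 0.16. The 5 mice at 54 µg had 0.61, 1.04, 0.09, 0.70 and 0.37. At 18 µg the values ran from -0.33 to 0.56 (median 0.17) and at 162 µg from 0.16 to 1.09 (median 0.62). At 54 µg 4 of 5 mice and at 162 µg 5 of 6 were above every control, but only 3 of 6 at 18 µg. Its log2 fold change was 0.37 (SE 0.17, adjusted p = 0.2907 in limma) at 18 µg, 0.71 (SE 0.18, adjusted p = 0.1345) at 54 µg and 0.86 (SE 0.17, adjusted p = 0.00522) at 162 µg, of which the last was called. The 162 µg mouse exceeded its control on 4 of 4 slides, by 0.25 to 1.15.

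Among the Fos proteins, which need a Jun partner to bind DNA, Fosl1 (Fra-1) was called. Fosl1 is itself an AP-1 target and is expressed late and long. Its controls had log2 ratios of -4.23, -3.68, -3.84, -3.12 and -3.12. The 54 µg mice had -3.41, -3.45, -2.76, -2.89 and -2.94. The 18 µg mice ran from -3.28 to -2.47 (median -2.86) and the 162 µg mice from -2.92 to -1.92 (median -2.81). All 6 mice at 162 µg lay above every control, and 5 of 6 at 18 µg and 3 of 5 at 54 µg did so. These counts include arrays with a weak Fosl1 signal. At 18 µg the signal exceeded background on 5 of 6 arrays and was well above it on 4, and at 54 µg it was well above on 4 of 5. Fosl1 had a log2 fold change of 0.59 (SE 0.17, adjusted p = 0.09291 in limma) at 18 µg, 0.41 (SE 0.19, adjusted p = 0.5598) at 54 µg and 0.79 (SE 0.17, adjusted p = 0.01176) at 162 µg. In the authors' deposited log2 table its change at 162 µg was 0.65 (adjusted p = 0.1128) and was not called.

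Fos, the transient founding member, did not pass the test at any dose. The controls had log2 ratios of -1.16, -1.52, -3.60, -1.71 and -1.65. One control, replicate 3, lay far below the other 4. The 54 µg mice had -2.43, -1.33, -2.19, -1.35 and -1.18, the 18 µg mice ran from -2.24 to -0.26 (median -1.42) and the 162 µg mice from -2.07 to -0.99 (median -1.45). The groups overlapped, with 1 of 6 mice above every control at 18 µg, 0 of 5 at 54 µg and 1 of 6 at 162 µg. The log2 fold change at 162 µg was 0.47 with a 95% interval of -0.35 to 1.30 (adjusted p = 0.6215 in limma). Without control replicate 3 the changes were 0.14, -0.23 and -0.02 in order of dose, against 0.49, 0.31 and 0.47 with it.

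Fosb, a close relative of Fos, and Fosl2 (Fra-2), a Fos protein with a longer-lived transcript, did not pass the test either. Fosb had a log2 fold change of 0.53 (95% interval 0.05 to 1.02, adjusted p = 0.2752 in limma) at 18 µg. Its change was 0.03 (-0.53 to 0.60) after 54 µg and 0.30 (-0.21 to 0.82) after 162 µg. Its spots on control replicate 3 and on 162 µg replicate 2 were outliers and left out, and 4 of 6 mice at 18 µg were above the 4 controls that remained. Its mean at 54 µg, -1.84 ± 0.35 (SD, n = 5), was near that of the controls, -1.99 ± 0.35 (SD, n = 4). On the brighter probe of Fosl2 the change was -0.05 (95% interval -0.47 to 0.37) after 18 µg. It was 0.40 (-0.05 to 0.85) after 54 µg and 0.40 (-0.02 to 0.82) after 162 µg. On the second Fosl2 probe the change at 162 µg was 0.18 (adjusted p = 0.8184 in limma).

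Of the Jun proteins, which can bind as dimers of their own, Junb rose and Jun did not pass the test. The Junb controls had log2 ratios of -2.09, -1.36, -2.08, -1.43 and -1.07. The 54 µg mice had -1.28, -0.92, -1.35, -0.72 and -0.86, and the 5 mice with a value at 162 µg had -1.20, -1.07, 0.34, -0.85 and -0.03. The spot of the remaining 162 µg mouse, replicate 4, was an outlier and left out. At 18 µg Junb ran from -1.22 to -0.10 (median -0.70), with 5 of 6 mice above every control. At 162 µg 3 of 5 and at 54 µg 3 of 5 were above every control. Junb had a log2 fold change of 0.80 (SE 0.21, adjusted p = 0.06666 in limma) at 18 µg, 0.60 (SE 0.22, adjusted p = 0.4157) at 54 µg and 0.90 (SE 0.21, adjusted p = 0.01904) at 162 µg. Of the 4 calls this was lost under the most alternative settings, 7 of 15, where Fosl1 was lost under 4, Ier3 under 3 and Myc under 2. It was lost without control replicate 3 (adjusted p = 0.07941), control replicate 4 (adjusted p = 0.07139) or 162 µg replicate 3 (adjusted p = 0.07258), and it was lost with the outlier spot kept, where the change was 1.23 (adjusted p = 0.07021).

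Jun, the strongest activator of the Jun proteins, had log2 ratios between 0.33 and 1.45 in the control mice. Its ratios lay between 0.50 and 1.27 after 18 µg, between 0.89 and 1.80 after 54 µg and between 1.02 and 1.45 after 162 µg. Its log2 fold change was 0.08 (95% interval -0.23 to 0.39) at 18 µg, 0.40 (0.07 to 0.73) with 54 µg and 0.27 (-0.04 to 0.58, adjusted p = 0.3573 in limma) with 162 µg. No mouse at 18 µg, 2 of 5 at 54 µg and 1 of 6 at 162 µg were above every control. At 18 µg and 162 µg its sign turned with arrays centred on their median, to -0.33 and -0.01.

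Atf3, a stress-induced partner of Jun proteins that can repress inflammatory genes, did not pass the test at any dose. Its log2 ratio was -1.13, -0.70, -0.89 and -0.99 in the 4 controls with a value. At 54 µg it was -0.29, -0.15, -1.05, -0.59 and -0.34, and in the 5 mice with a value at 162 µg it was -0.77, -0.19, -0.71, -1.02 and -0.83. At 18 µg it ran from -0.90 to -0.17 (median -0.33). Above every control were 5 of 6 mice at 18 µg, 4 of 5 at 54 µg and 1 of 5 at 162 µg. Atf3 had a log2 fold change of 0.59 (SE 0.17, adjusted p = 0.09291 in limma) at 18 µg, 0.55 (SE 0.19, adjusted p = 0.3809) at 54 µg and 0.32 (SE 0.18, adjusted p = 0.3842) at 162 µg. The difference between 162 µg and 18 µg was -0.27 (95% interval -0.61 to 0.08, adjusted p = 0.4743) and did not pass the test.

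Egr1, a zinc finger factor of the immediate early class, had large changes and a large spread. Its controls had log2 ratios of -1.92, -3.98, -4.33, -3.05 and -2.83. The 54 µg mice had -2.25, -2.43, -3.67, -2.08 and -1.56. The 18 µg mice ran from -2.98 to -1.20 (median -2.34) and the 162 µg mice from -3.56 to -1.58 (median -2.32). Control replicate 1 was higher than most treated mice, so that 1 mouse per dose group exceeded every control. Egr1 had a log2 fold change of 0.96 (SE 0.44, adjusted p = 0.3129 in limma) at 18 µg, 0.87 (SE 0.47, adjusted p = 0.6734) at 54 µg and 0.95 (SE 0.44, adjusted p = 0.2696) at 162 µg, none of them called, with a standard error far above the 0.17 of Myc. On slides holding both groups, the 162 µg mouse exceeded its control on 4 of 4 slides. With 162 µg and control mice alone in the fit, Egr1 was called, at 1.22 (adjusted p = 0.02957).

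**Figure D2:**
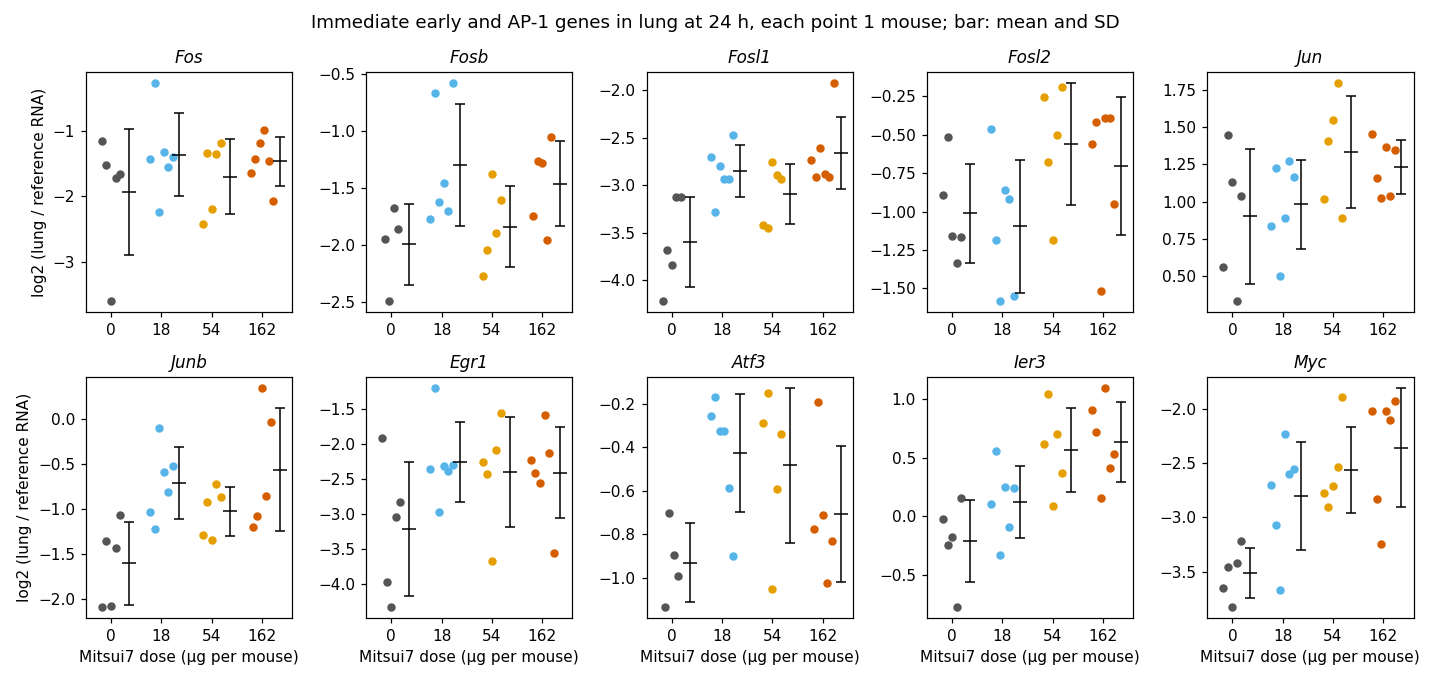
Log2 ratio of lung to reference RNA (y axis, own scale per panel) in every mouse for the 10 genes, by dose (x axis, 0 is vehicle control); each point is 1 mouse and the black bar is the mean ± SD of the group. The 6 Fosl1 points at 162 µg sit above all 5 control points, and 1 Fos control at -3.60 lies far below the other 4.

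**Figure D3:**
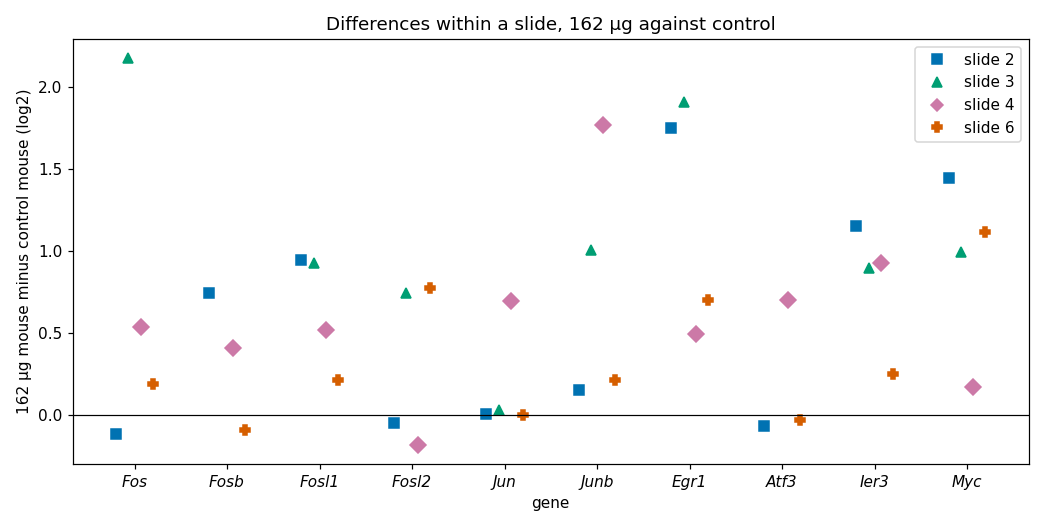
Difference in log2 ratio between the 162 µg mouse and the control mouse of the same slide (y axis) for the 10 genes (x axis), 1 marker per slide, for the 4 slides that held both. Fosl1, Junb, Egr1, Ier3 and Myc, and Jun by as little as 0.001, were above 0 on 4 of 4 slides. Fos was above 0 on 3 of 4 and Fosl2 on 2 of 4. Fosb and Atf3 had a value on 3 slides only, and were above 0 on 2 and 1 of them. The same count was not made over all expressed genes.

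Whether the response grew with dose was tested between the doses themselves. Between 162 µg and 18 µg, 0 of the 10 genes were called in limma (3 had an unadjusted p under 0.05), while 4.98% of all expressed genes were called in either direction. The 3 were Myc, higher at 162 µg by 0.50 (95% interval 0.16 to 0.84, adjusted p = 0.102), Ier3 by 0.49 (0.16 to 0.82, adjusted p = 0.09115) and, on its brighter probe, Fosl2 by 0.45 (0.06 to 0.84, adjusted p = 0.2268). On the second Fosl2 probe the same difference was -0.001 (-0.50 to 0.50, adjusted p = 0.9994). With quantile normalization between arrays Myc was called, at 0.72 (adjusted p = 0.0114). For Junb the difference was 0.10 (-0.31 to 0.52) and for Egr1 -0.01 (-0.88 to 0.87), and neither interval shows that the doses acted alike. Between 162 µg and 54 µg, 0 of the 10 were called in limma (1, Fosl1, had an unadjusted p under 0.05), beside 0% of all expressed genes. Between 54 µg and 18 µg, 0 of the 10 were called (2, Fosl2 and Jun, had an unadjusted p under 0.05), beside 0.0304% of all expressed genes. The second Fosl2 probe gave 0.10 there (adjusted p = 0.933 in limma).

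Mice of the same group differed from each other in more than 1 of these genes at a time. After dose and slide were taken out, the log2 ratios of Fos and Egr1 moved together across 22 arrays (Pearson r = 0.78), as did those of Fosl2 and Myc (r = 0.65) and of Egr1 and Ier3 (r = 0.63). Fosb and Fosl2 moved in opposite ways over the 20 arrays with both values (r = -0.69). The pairs named are those with the highest coefficients and the lowest, picked by rank among all pairs. Extreme values are due in such a ranking, and most pairs lay between them. The arrays share their normalization, and these coefficients are descriptions without a test.

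Over the slide-adjusted log2 ratios with dose left in, the expressed genes most like Myc were Cxcl1 (r = 0.92), a neutrophil chemokine, Adamts4 (r = 0.92), a proteoglycan protease, and Rrs1 (r = 0.91), a ribosome assembly factor. Those most like Ier3 were Krt81 (r = 0.89), Popdc3 and Pusl1 (both r = 0.86). Those most like Fosl1 were Igf2bp1 (r = 0.89), Rin1 and Zdhhc12 (both r = 0.85). Those most like Junb, over the 21 arrays with a Junb value, were R3hdm4 (r = 0.95), Mmp14 (r = 0.95), a membrane matrix metalloproteinase, and 1110038B12Rik (r = 0.92). All were picked as the closest of 16433 expressed genes. With dose left in, genes that also rose after treatment were favoured and high coefficients were bound to appear. They are descriptions, and shared regulation was not tested.

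Around these 10 genes, 154 expressed genes of 7 related lists were followed. At 162 µg 31 of them were called higher and 1 lower, at 54 µg 9 higher and none lower, and at 18 µg 5 higher and none lower, against the shares of all genes given above. The lists were drawn up with earlier results of these data known, so that their counts are descriptions. Their median log2 fold change was 0.16, 0.24 and 0.22 at the 3 doses.

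Of the other leucine zipper partners of AP-1, 2 of 21 were called higher at 162 µg and none lower, with a list median of 0.13 and an unadjusted p under 0.05 in 7, of which 5 were higher. The 2 called were Cebpd, a C/EBP factor of the acute phase (1.91, SE 0.40, adjusted p = 0.009569 in limma), and Maff, a small Maf protein (0.97, SE 0.18, adjusted p = 0.004085). For Maff 5 of 6 mice were above every control, but for Cebpd 2 of 6. At 18 µg and 54 µg 0 were called in limma, with an unadjusted p under 0.05 in 4 and 5 of the 21.

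Of the other immediate early genes, 10 of 31 were called higher at 162 µg and none lower, with a list median of 0.49. The smallest p-values were those of Plk3, a stress kinase (1.15, SE 0.11, adjusted p = 4.008e-05 in limma), and Gadd45g, a growth arrest gene (1.74, SE 0.20, adjusted p = 0.0001784). Both were also called at 54 µg, at 0.83 and 1.16. Ccn2 (1.12), Sgk1 (0.94), Hbegf (0.95) and Ccn1 (0.97) were called at 162 µg, Hbegf, an EGF receptor ligand, also at 54 µg (1.30), and Ccn1, a matrix protein, also at 18 µg (1.24). At 54 µg 3 of the 31 and at 18 µg 1 of the 31 were called.

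None of the listed genes that switch the immediate early response on or off was called, and the activity of their proteins was not measured. Of all expressed genes 3.32% were called higher and 3.53% lower at 162 µg, so that few calls are due in lists of this size. Of 24 upstream kinases and factors, 0 were called at any dose in limma. Their list median at 162 µg was 0.03, and 7 had an unadjusted p under 0.05 there, of which 6 were higher. The 2 brightest were Elk1, a ternary complex factor, at -0.14 (adjusted p = 0.7797), and Mapk3 (ERK1) at -0.20 (adjusted p = 0.7526). Of 14 feedback inhibitors 0 were called at any dose in limma. Their list median at 162 µg was 0.12, and 6 had an unadjusted p under 0.05 there, all of them higher. The 2 brightest were Dusp6, an ERK phosphatase, at 0.58 (adjusted p = 0.1581), and Nab2, an Egr1 corepressor, at -0.12 (adjusted p = 0.6078).

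The Myc dimerisation network gave 1 call of 11 at 162 µg, the Myc paralogue Mycl, which had a log2 fold change of -0.60 (SE 0.17, adjusted p = 0.04598 in limma). Among 25 known Myc targets 6 were called higher at 162 µg and none lower, with 19 of 25 estimates above 0 and a list median of 0.37. The called genes were Srm, a spermidine synthase (1.00), Gnl3, a nucleolar GTPase (0.89), Eif4a1, a translation factor (0.78), Nme1 (0.73), Ncl, the nucleolar protein nucleolin (0.69), and Nolc1 (0.65). Srm was called at all 3 doses, at 1.00, 0.78 and 1.00, Nme1 also at 18 µg (0.80) and Nolc1 also at 54 µg (0.64).

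Known AP-1 targets had the highest median of the 7 lists. At 162 µg 13 of 28 were called higher and none lower, with 25 of 28 estimates above 0 and a list median of 0.68. Several of them were listed with their change in these lungs already known. Small p-values belonged to the metallothioneins Mt2 (4.79, SE 0.38, adjusted p = 5.008e-06 in limma) and Mt1 (2.94, SE 0.29, adjusted p = 7.688e-05), to Cxcl1 (2.59, SE 0.31, adjusted p = 0.0002413), to the ferritin chain Fth1 (0.94) and to Il6. Il6, a cytokine of the acute phase, was not well above background in any of the 5 controls. It was well above background in all 6 mice at 162 µg. With control signals below the background floor raised to it, the mean at 162 µg was 8.38-fold higher (adjusted p = 0.001535 in limma). That lower bound allows for the floor only and does not cover the spread between mice. Cxcl1 was also called at 18 µg (1.42) and 54 µg (2.29), and was well above background in 3 of 5 controls. Mt1 and Mt2 are closely similar genes, and sharing of signal between their probes was not tested.

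**Figure D4:**
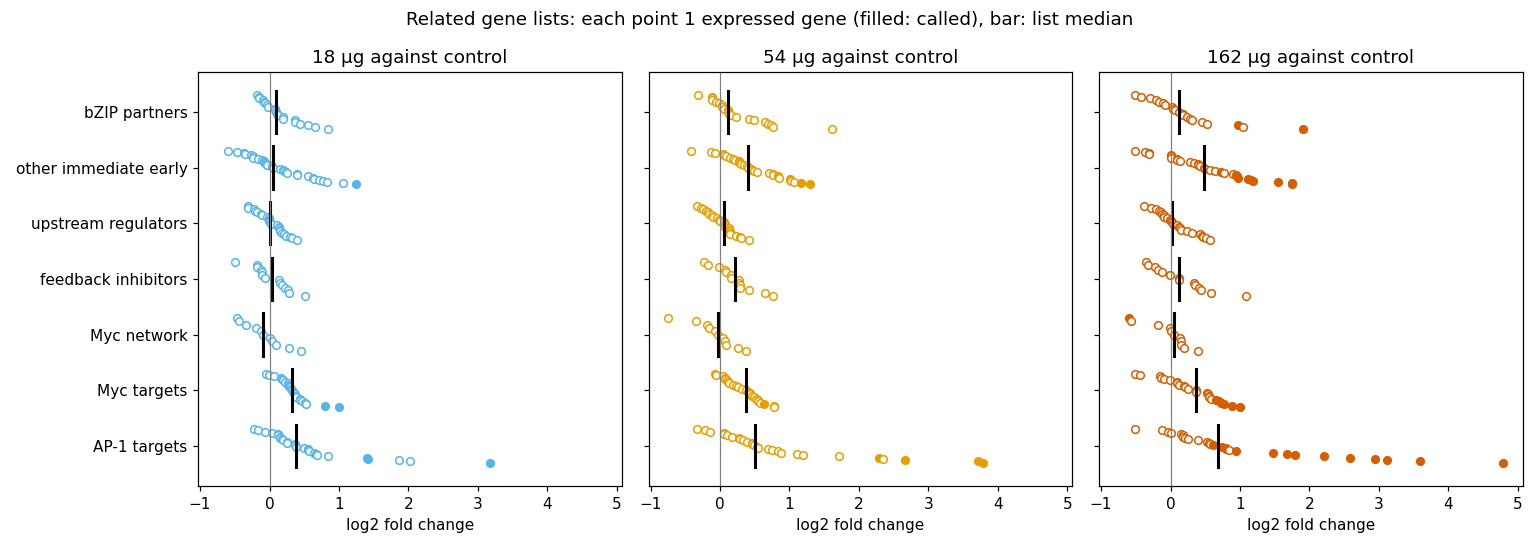
Log2 fold change against control (x axis) of each expressed gene of the 7 related lists (rows) at 18, 54 and 162 µg (panels); filled points are called, open points are not, and the black bar is the list median. At 162 µg the AP-1 target points reach 4.79 for Mt2, with 13 of 28 filled. No point is filled among 24 upstream regulators and 14 feedback inhibitors, where few would be at the share of all genes.

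The lungs were checked against cell type markers. Sftpc, Ager and Scgb1a1, of type II, type I and club cells, had control log2 ratios of 7.53, 5.25 and 8.49. Cardiac muscle markers ranged in mean log2 ratio from -0.02 to 6.07 among controls and from 0.05 to 5.13 at 162 µg. Recruited monocyte and macrophage markers, 7 found, had a mean log2 ratio between -1.10 and -0.57 in the controls, -1.01 and -0.13 with 18 µg, -1.10 and 0.39 with 54 µg, and -0.60 and 0.33 with 162 µg. Of these markers 2 of the 7 (Arg1 and Spp1) were called higher at 162 µg, and Arg1 also at 18 µg (2.06) and 54 µg (2.92). Neutrophil markers, 7 found, ranged from 1.95 to 4.37 in controls and from 2.24 to 4.25 at 162 µg, with 0 of 7 called in limma and 2 of 7 at an unadjusted p under 0.05. Their median over the mice was 2.187 in controls and 3.096 at 162 µg, and their median log2 fold change at 162 µg was 0.64. The absence of calls therefore does not show an unchanged neutrophil content. The paper reports a dose-dependent rise of neutrophils in bronchoalveolar lavage fluid. Of 7 alveolar macrophage markers 1 (Marco, 1.51) and of 5 type I cell markers 1 (Pdpn, 1.04) were called higher at 162 µg. Called lower at 162 µg were 2 of 6 ciliated cell markers, 2 of 5 B cell markers, 1 of 4 club cell markers (Cyp2f2, -1.004) and 1 of 5 T cell markers (Lck, -0.83). At 18 µg Chil3 of alveolar macrophages (1.73) and Kdr of endothelium (0.65) were called higher and Aldh1a1 of club cells (-1.11) lower. Median Cy5 signal was 2.00 times the local background in the controls but 1.44, 1.49 and 1.72 times with rising dose. The part of these cell types and of signal strength in the changes of the 10 genes was not tested.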

How the data were processed

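Lung RNA of 22 mice was hybridised to 2-colour Agilent arrays against a common reference. The authors deposited intensity values, the median pixel signal of each spot in both channels with neither background subtraction nor normalization, which the file headers credit to Feature Extraction 10.7.3.1. They also deposited a log2 ratio table, whose normalization is not given in the sources used here; it served as an alternative, and its direction follows the scanner values. Control spots and spots marked as outliers were left out, which removed 5 values of the 10 genes. Loess with a span of 0.3 was applied to the Cy5 over Cy3 log2 ratios of each array, and the median over replicate spots of a probe was taken. Probes were named through RefSeq accessions (26413 of 55681), and a gene is its brightest probe.

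R 4.3.3 with limma 3.58.1 fitted dose and slide as fixed effects (7 slides, 12 residual degrees of freedom, 2 slides without a control), with Benjamini-Hochberg adjusted p. Limma's moderated test stands in for the shrunken F test of the study's methods. Expression required Cy5 above the trimmed mean (5%) plus 3 trimmed standard deviations of 308 negative control spots on at least 80% of a group's arrays. Lower bounds on a fold used Cy5 signals after loess and between-array quantile scaling of the average intensity, and dye bias was not balanced. Tested on simulated data for 162 µg against control, with 200 of 55681 probes changed, limma recovered 76% of changes of 0.8, 90% of changes of 1.0 and 98% of changes of 1.5 on the log2 scale. The number of arrays limits the precision. The genes, the lists, the rule for named genes and the tests were chosen with earlier results of these data known. Named are the 10 genes, up to 6 called genes per list by adjusted p at 162 µg (or the 2 brightest where none was called) and the 3 genes most like each called gene; 1 gene that this rule names is not reported here. Alternatives were other background, normalization, slide and replicate terms, filters, thresholds, probe averaging, the deposited table, fits of 2 groups and leaving out each mouse; keeping outlier spots was added after seeing the data.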

Additional observations from a re-analysis of the deposited data

Results flagged for a closer look

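Of 40 gene and dose groups, 2 held a mouse that lay far from the rest of its group, and chance alone marks about 1 group in 20. Fos was at -3.60 in control replicate 3, below the other 4 controls. Fosl1 was at -1.92 in 162 µg replicate 6, above the other 5 mice of its group, and without that mouse its change at 162 µg was 0.72 (adjusted p = 0.02039 in limma).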

How the results depend on the processing

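The 4 calls at 162 µg kept their direction under 15 alternatives and without any 1 of 22 mice. Dropping the expression filter or the minimum fold, or using another background flag, changed the call rule only. The fold changes could not differ there, and dropping the filter or the minimum fold could not lose a call. With arrays centred on their median or without normalization 0 of the 10 genes were called at 162 µg. The deposited table called 2 and the replicate number as a block 1 (Myc). At 54 µg a fit of the 2 groups alone called 4 (Fosl2, Junb, Ier3 and Myc), and at 18 µg the replicate block called 1 (Myc). Between 162 µg and 18 µg quantile normalization called 1. With single mice left out the calls ranged from 3 to 4 at 162 µg, the lowest without control replicate 3, control replicate 4 or 162 µg replicate 3. They ranged from 0 to 1 at 18 µg, with Junb called without control replicate 2 or 162 µg replicate 6 and Myc without control replicate 4, and from 0 to 1 at 54 µg, with Ier3 called without 54 µg replicate 3.

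Of the related genes, 32 were called at 162 µg, but 5 with median centring, 1 without normalization and 20 with the replicate block, and 25 to 39 with single mice left out. At 18 µg the count was 5, but 0 with median centring or no normalization, 2 in the deposited table, 11 with slide as a random block and 10 with the replicate block. It was 1 without control replicate 1 or 18 µg replicate 5 and 13 without 54 µg replicate 5. At 54 µg it was 9, but 0 with median centring, no normalization or the replicate block, 2 in the deposited table, 4 with quantile normalization, 15 with slide as a random block and 27 with the 2 groups alone. It was 1 without control replicate 3, 54 µg replicate 2 or 54 µg replicate 4 and 13 without 54 µg replicate 3.

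Signs turned in genes that were not called. With median centring Jun (-0.33) and Ier3 (-0.06) at 18 µg, Fosb at 54 µg (-0.002) and Fosb (-0.041) and Jun (-0.006) at 162 µg fell below 0. Without normalization Fos (-0.081), Fosb (-0.027), Jun (-0.49), Ier3 (-0.22) and Myc (-0.057) at 18 µg and Fosb (-0.14), Jun (-0.024) and Atf3 (-0.088) at 162 µg did so. Fosl2 at 18 µg was 0.048 and Jun -0.061 on Cy5 alone, and Fosl2 was 0.029 in the deposited table, 0.068 with the replicate block and 0.064 as the mean of its probes. Fos at 54 µg was -0.45 with the replicate block, and Fosb at 54 µg was -0.18 with the 2 groups alone. With single mice left out Fosl2 at 18 µg ranged from -0.15 to 0.088, Fosb at 54 µg from -0.20 to 0.18 and at 162 µg from -0.006 to 0.41, and Fos at 54 µg from -0.23 to 0.67 and at 162 µg from -0.023 to 0.70. The cause was not tested for any of these.

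Replicate numbers are shared between groups, and the sample labels do not say that they pair the mice. Deviations of same-numbered mice correlated between -0.25 and 0.62 (median 0.21, 31 pairs), and those of other mice had a median of -0.06. For mice on the same slide the median was 0.28 (24 pairs), and for mice on different slides it was -0.06. Many same-numbered mice shared a slide, and number and slide were not told apart here. Signal over background limits the weakest probes, with a median ratio that was lowest at 18 µg (1.44) and a share of probes above background that fell to 52.1% on 1 array at 162 µg.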
